A study of Homo sapiens with 4 samples.

Results

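Translation factor genes encode the proteins that start and drive protein synthesis on ribosomes. They were examined here as 66 protein-coding genes whose symbols begin with EIF (eukaryotic initiation factor) or EEF (eukaryotic elongation factor), out of 58812 genes listed. The 4 genes of the eIF2 alpha kinases, whose symbols begin with EIF2AK, were not counted among them. Gene expression had been measured by RNA sequencing in A549, an established epithelial cell line from a human lung carcinoma. The SAMD9 group (n = 2 libraries) was sequenced 24 hr after receiving 1 µg of a SAMD9-Myc-DDK expression plasmid, and the empty vector group (n = 2 libraries) 24 hr after 1 µg of pCMV6-Entry. Both groups therefore carry a transfected plasmid, and the labels give neither the share of cells transfected nor whether replicates were separate cultures. SAMD9 is an antiviral protein made in response to interferon that has been reported to cut a transfer RNA and slow elongation.

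In initiation, eIF2 brings the initiator tRNA to the small ribosomal subunit, eIF3 holds the complex together, and the eIF4 factors recruit the capped mRNA and unwind it. The exchange factor eIF2B reloads eIF2 with GTP, and eIF5, eIF5B and eIF6 act around start codon recognition and subunit joining. In elongation, eEF1A delivers aminoacyl-tRNAs, the eEF1B subunits recharge it, and eEF2 moves the ribosome along the mRNA. Epithelial tumour lines make these mRNAs at high levels, and several of them begin with a run of pyrimidines through which the mTORC1 kinase controls their translation.

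SAMD9 itself had 220123 and 184350 counts in the SAMD9 libraries, against 444 and 400 in the empty vector libraries, which is 8.88 on the log2 scale (SE 0.08). Library totals were 39670083 and 30750029 counts with SAMD9 and 29301854 and 31434339 with empty vector. Of 6 epithelial marker genes all had counts in every library and summed to 8102 and 7894 CPM (normalised counts scaled to a common library size) with SAMD9, against 6277 and 7081 CPM with empty vector. KRT7, KRT8 and KRT18 made up nearly all of this. KRT8 and CDH1 were higher with SAMD9 (log2 fold change 0.40 and 0.89). EPCAM had only 5.58 and 5.55 CPM with SAMD9, against 6.90 and 5.86 with empty vector, and KRT19 8 and 5 counts, against 10 and 8. Marker genes of leukocytes summed to at most 6.57 CPM in any library, those of fibroblasts to at most 6.27 and those of endothelium to at most 1.53. The fibroblast sum was 6.27 and 6.22 CPM with SAMD9, against 1.79 and 2.63 with empty vector, with DCN at 0 in all 4 libraries. Most of that sum was COL1A1, at 5.20 and 5.59 CPM with SAMD9, against 1.44 and 2.09 with empty vector. What part the fibroblast marker difference has in the results was not tested.

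Translation factor mRNAs changed little. Of 63 members tested, 9 had higher and 4 had lower levels in SAMD9 libraries. Calls were made where the p of edgeR's quasi-likelihood test, after Benjamini-Hochberg adjustment across all tested genes, was under 0.05. The members called are 20.6%, against 27.5% of all 19814 genes tested, where 15.3% were higher and 12.2% lower. None reached an absolute log2 fold change of 1, which 2374 of all genes tested did. The members ran from -0.65 for EEF1AKMT2 to 0.49 for EIF4EBP3, neither of them called, and the middle of the list lay between -0.11 and 0.15 (quartiles), against -0.27 and 0.29 for all genes. The median was 0.05 for the members and -0.01 for all genes. For 57 of the 63, the 95% interval of the log2 fold change lay within 0.5 of 0 on either side, and for 21 within 0.25. The median SE was 0.07 for the members and 0.15 for all genes tested.

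**Figure D1:**
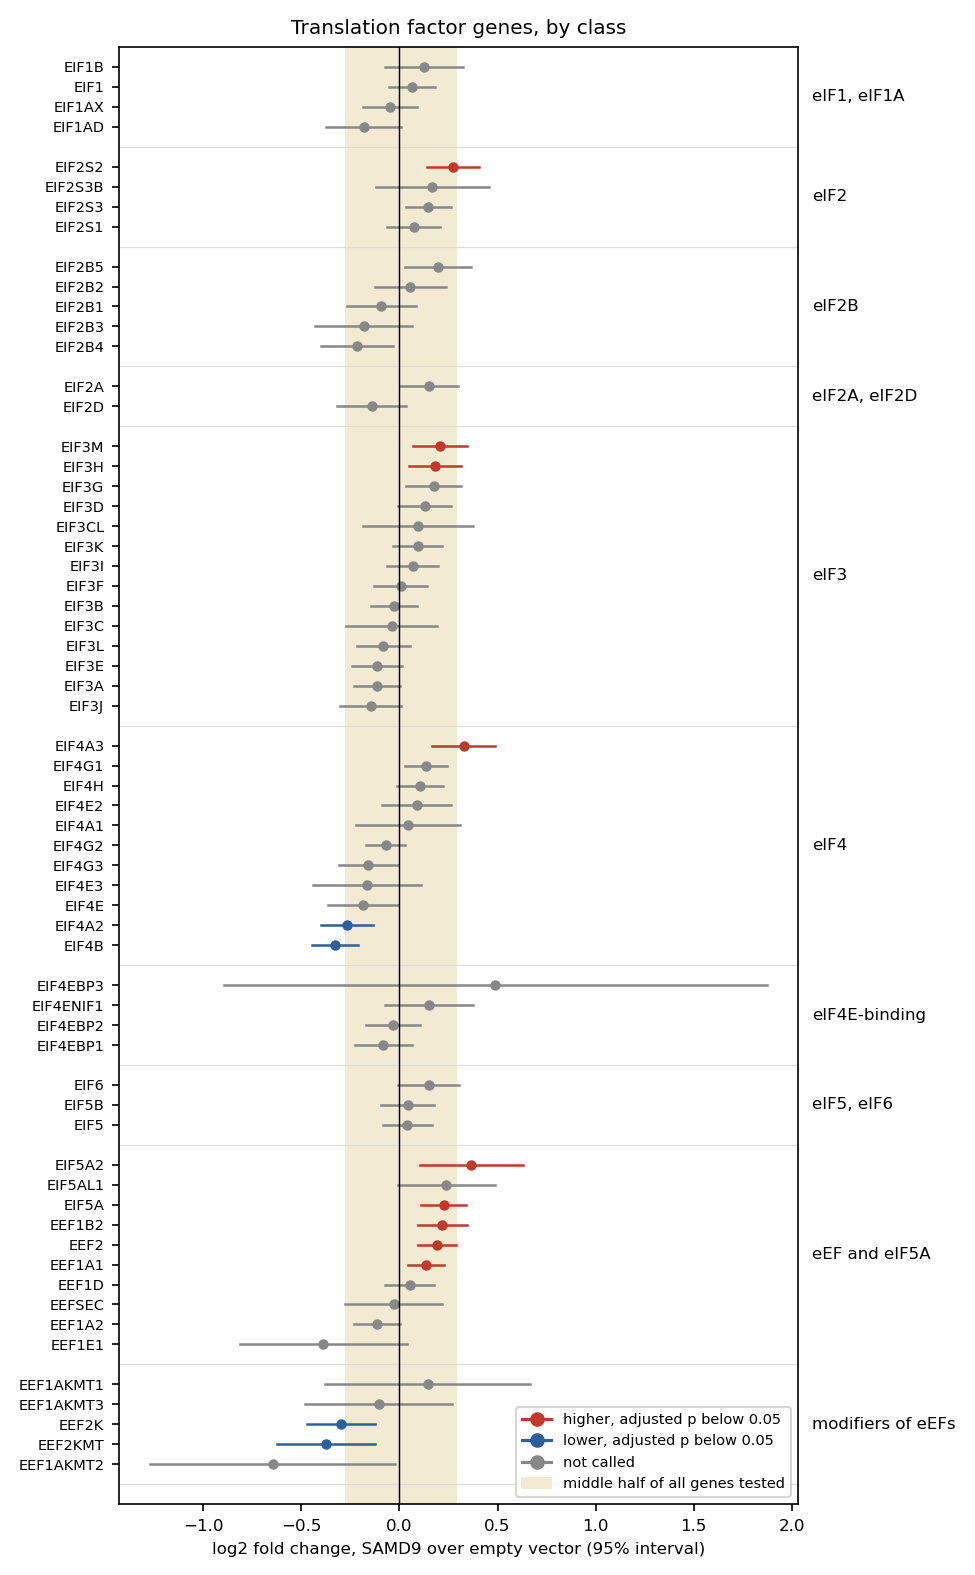
Log2 fold change of each tested translation factor gene, SAMD9 over empty vector, with its 95% interval (x axis), grouped by class down the page; EIF1AY is not drawn. Red points are the 9 called higher, of which 0 are called under total-count scaling, blue the 4 called lower, grey the rest, and the shaded band runs from -0.27 to 0.29, the quartiles of all genes.

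These fold changes are relative to the bulk of genes, through TMM (a scaling that sets the typical gene to no change). With each library scaled by its total count instead, the median of all genes moved to -0.19 and that of the members to -0.14, and 0 members were called higher (0%, against 9.96% of all genes) and 25 lower (39.7%, against 28.5%). Of the 82 genes whose fold changes were followed under each alternative, 27 changed sign with this scaling, among them EIF2S3, EIF4G1, EIF3G, EIF1 and EIF6. The members' summed share of all counts was 1.53% and 1.54% with SAMD9, against 1.67% and 1.66% with empty vector, whereas their summed TMM-normalised level was 16262 and 16568 CPM with SAMD9, against 15611 and 15626 CPM with empty vector. Every rise of a member is thus a rise relative to other genes, and the 4 falls were called under both scalings. Members given below as not called were so with TMM, and many of them were among the 25 called lower under total-count scaling. Without SAMD9 replicate 2 the counts were 1 higher (EIF4A3) and 3 lower, and without SAMD9 replicate 1 they were 6 higher and 2 lower. In bulk RNA, fewer cells of a type and less RNA per cell cannot be told apart, nor can a change in all cells and a larger one in the transfected cells.

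The levels of the members spanned a wide range, and the order was led by elongation factors. Per kilobase of the gene length listed with the counts, EEF1A1 averaged 665 CPM per kilobase with SAMD9 and 605 with empty vector, and EEF2 513 and 449. EIF5A followed at 248 with SAMD9 and 212 with empty vector, then EEF1A2 at 168 and 182, and EIF4G2 at 151 and 158. EIF2S3, EIF1, EEF1B2, EIF4H and EIF4G1 lay between 115 and 140 with SAMD9 and between 105 and 127 with empty vector. The 5 eIF2B subunit genes ran only from 4.78 to 11.3 CPM per kilobase with SAMD9 and from 5.41 to 12.0 with empty vector.

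**Figure D2:**
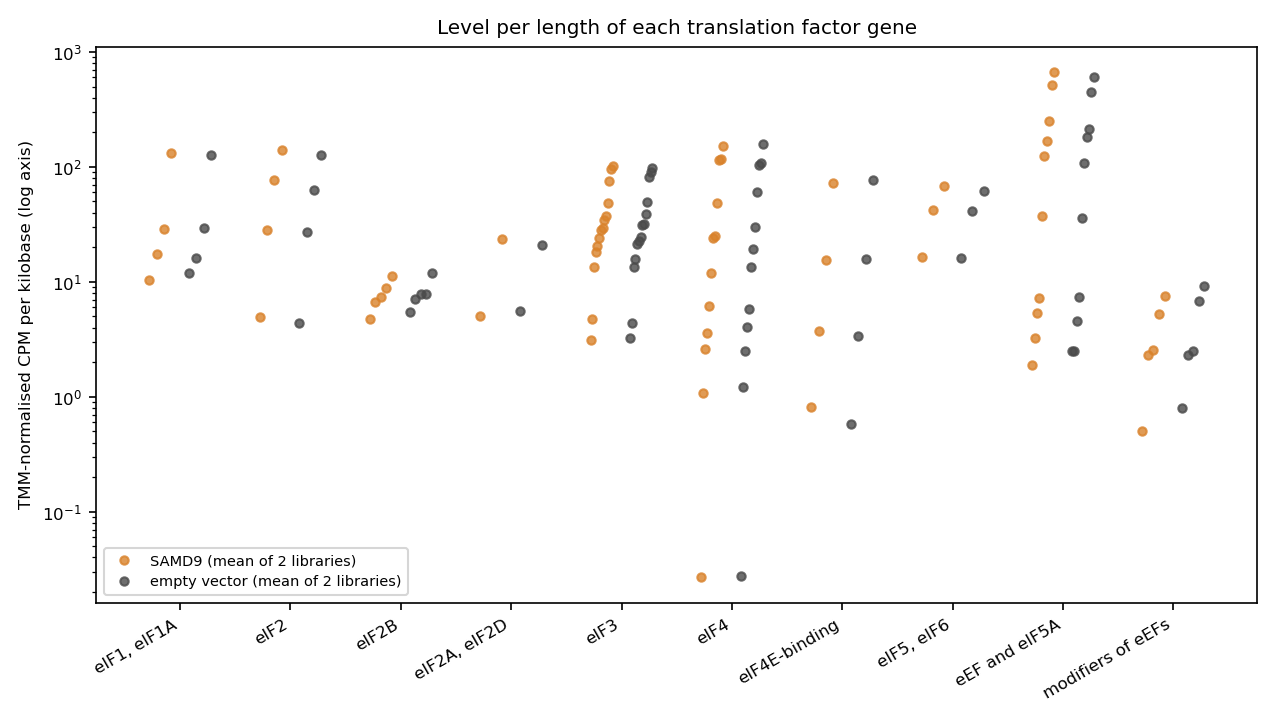
Mean TMM-normalised CPM per kilobase of gene length (log y axis) of each translation factor gene by class (x axis), with SAMD9 (orange) left of empty vector (grey), n = 2 libraries each. Genes at 0 in all libraries and EIF1AY are not drawn; EEF1A1 is the highest point at 665 and 605, and EIF4E1B the lowest.

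Some values are not a measure of the gene. EEF1G, which encodes a subunit of the eEF1 complex, had 0 counts in all 4 libraries, and 99.9% of its exonic bases are shared on the same strand with another listed gene (ENSG00000255508), which had 30 and 41 counts with SAMD9 and 65 and 36 with empty vector. EEF1E1-BLOC1S5, a readthrough gene, had 0 counts and shares 100% of its exonic bases. EIF4A1, the main helicase of initiation, had 13.7 CPM in each SAMD9 library, against 13.1 and 13.5 with empty vector, far under EIF4A2, and 48.6% of its exonic bases are shared with other genes on its strand, among them SENP3-EIF4A1. EIF3C and EIF3CL are near copies: 98.5% of the transcript 31-mers (runs of 31 bases) of EIF3CL and 48.2% of those of EIF3C also occur in other genes. EIF4EBP3 shares 73.4% of its exonic bases with ANKHD1-EIF4EBP3. The levels of these genes themselves cannot be read from the deposited counts.

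The first bases of the mRNA were examined, since the members' names do not use them. A 5′-terminal oligopyrimidine start was taken as a C at the RefSeq start followed by at least 4 bases that are each C or T. It was present in 12 of the 53 members with a RefSeq promoter window (22.6%), against 5.12% of the windows of all tested genes, and 41 members' windows lacked it. The windows below, from RefSeq on GRCh38.p14, run 5′ to 3′ from 10 bases before the annotated start to 20 from it, with the pyrimidine run at the start in capitals. The first 5 belong to the members called with such a start, EIF3F and EIF2S3 show it in members that were not called, and EIF5A and EIF4A3 show called members without it.
EEF1A1 (chr6:73521013-73521042, minus): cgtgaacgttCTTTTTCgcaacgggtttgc
EEF2 (chr19:3985444-3985473, minus): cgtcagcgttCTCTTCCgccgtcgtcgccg
EIF3M (chr11:32583821-32583850, plus): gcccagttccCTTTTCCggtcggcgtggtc
EIF4A2 (chr3:186783567-186783596, plus): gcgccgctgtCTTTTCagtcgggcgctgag
EIF4B (chr12:53006446-53006475, plus): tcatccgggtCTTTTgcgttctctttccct
EIF3F (chr11:7987327-7987356, plus): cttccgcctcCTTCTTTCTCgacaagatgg
EIF2S3 (chrX:24054946-24054975, plus): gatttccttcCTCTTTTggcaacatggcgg
EIF5A (chr17:7306989-7307018, plus): tgggaacccgaccacactagcgcgctagaa
EIF4A3 (chr17:80147109-80147138, minus): cggcagcggcacagcgaggtcggcagcggc

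Members with a pyrimidine start did not move as a block. Of 12, 3 were higher (EEF1A1, EEF2 and EIF3M, 0 of them under total-count scaling) and 2 lower (EIF4A2 and EIF4B), with log2 fold changes from -0.33 to 0.21 and a median of 0.13. Of the 38 tested members whose window had no such start, 4 were higher, 1 lower and the median was 0.04. Over all tested genes, 17.01% of those with a pyrimidine start and 17.6% of those without it were higher, and 12.9% and 14.9% lower. RefSeq starts may differ from the starts used in A549 cells. The E-box CACGTG, searched on both strands of the window from 250 bases before to 50 after the start, was found in 13 of the 53 members (24.5%) and in 9.75% of tested gene windows. EIF4A3, EIF5A2, EIF4B and EEF2K were among the 13, so windows with the motif belonged to called members of both directions. An interferon-type motif, TTTC and TTTC with any 2 bases between them, was in 4 members' windows on either strand (7.55%, against 2.80% of tested gene windows), those of EIF2A, EIF3C, EIF3K and EIF6, none of them called. An amino acid response motif, TGATG, any base and AA, was in 0 of the 53, against 1.72% of tested gene windows. A match describes letters in a window and nothing more.

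None of the 5 genes grouped by name with eIF1 and eIF1A, factors of scanning and start codon choice, passed the test. EIF1, which guards the choice of start codon, had 473 and 490.1 CPM with SAMD9, against 470.5 and 451 CPM with empty vector (log2 fold change 0.06, SE 0.06, 95% interval -0.05 to 0.18). EIF1B, its close homologue, had a log2 fold change of 0.13 (SE 0.10), EIF1AX one of -0.05 (SE 0.07) and EIF1AD one of -0.18 (SE 0.09). Under total-count scaling EIF1AX at -0.23 and EIF1AD at -0.37 were called lower. The Y-linked EIF1AY was counted and tested, and its level is not given.

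Of the eIF2 subunits, which form the GTP-bound carrier of the initiator tRNA, 1 of 4 rose, the beta subunit gene EIF2S2 (none under total-count scaling). EIF2S2 (chromosome 20, 34088298 to 34112332, GRCh38) had 196 and 209.8 CPM in the SAMD9 libraries, against 173 and 163 CPM in the empty vector libraries. Both SAMD9 libraries lay above both empty vector libraries, as in 31.1% of all genes tested. The log2 fold change was 0.27 (SE 0.06, edgeR adjusted p = 0.00215). EIF2S3, the gamma subunit gene on the X chromosome, had 474 and 500.04 CPM with SAMD9, against 443 and 436 CPM with empty vector, just short of the threshold (0.15, SE 0.06, adjusted p = 0.0540). The alpha subunit gene EIF2S1, whose product is the target of the stress kinases, had a log2 fold change of 0.07 (SE 0.06, 95% interval -0.06 to 0.21). Its groups overlapped, at 159 and 162 CPM with SAMD9 and 159 and 147 CPM with empty vector. EIF2S3B, a near copy of EIF2S3, was at 0.17 (SE 0.14) and not called. Of the transcript 31-mers of EIF2S2, 29.2% also occur in other genes, and of those of EIF2S3 29.6%.

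The guanine exchange factor eIF2B gave no call among its 5 subunit genes with TMM. Under total-count scaling EIF2B1, EIF2B3 and EIF2B4 were called lower, at -0.28, -0.37 and -0.41. EIF2B2 at -0.13 and EIF2B5 at 0.0094 were not called there. EIF2B5, the catalytic epsilon subunit, had 52.4 and 54.0 CPM with SAMD9, against 47.3 and 45.4 CPM with empty vector (log2 fold change 0.20, SE 0.08, adjusted p = 0.0741). The delta subunit gene EIF2B4 differed in the other direction, at 34.4 and 37.2 CPM with SAMD9, against 40.4 and 42.8 CPM with empty vector (-0.22, SE 0.09, adjusted p = 0.0771). In both genes the groups did not overlap, as in 31.1% (SAMD9 above) and 30.9% (SAMD9 below) of all genes tested. The alpha, beta and gamma subunit genes were not called either, EIF2B1 at -0.09 (SE 0.08), EIF2B2 at 0.05 (SE 0.09) and EIF2B3 at -0.18 (SE 0.12). EIF2A and EIF2D, which can deliver initiator tRNA without eIF2, were at 0.15 (SE 0.07) and -0.14 (SE 0.08), neither called. Under total-count scaling EIF2D was at -0.33 and called lower.

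Of the 14 genes of eIF3, the largest initiation factor, 2 rose, EIF3H and EIF3M (14.3%, against 15.3% of all genes). The other 12 did not pass the test, and under total-count scaling 0 rose and EIF3H was at -0.0068. EIF3M (chromosome 11, 32583798 to 32606262) had 133 and 137 CPM with SAMD9, against 120.0 and 113 CPM with empty vector, so that the log2 fold change was 0.21 (SE 0.07, adjusted p = 0.0213). EIF3H had 156 and 155 CPM with SAMD9, against 141 and 134 CPM with empty vector (0.18, SE 0.06, adjusted p = 0.0363). Neither call held when either SAMD9 library or empty vector replicate 2 was left out, and that of EIF3H was also lost with no filter on low counts. EIF3G, the RNA-binding subunit, was close to them at 0.17 (SE 0.07, adjusted p = 0.0603). At the other end stood EIF3J, the loosely bound subunit, at -0.15 (SE 0.07), EIF3A, the largest scaffold subunit, at -0.11 (SE 0.06), and EIF3E at -0.11 (SE 0.06), none of them called. The other 8 uncalled eIF3 genes lay between -0.08 and 0.13, with EIF3F at 0.0067. Under total-count scaling EIF3F was at -0.18 and called lower. Among others called lower there were EIF3J at -0.34, EIF3A at -0.30, EIF3E at -0.30 and EIF3B at -0.22. In 6 of the 14 genes both SAMD9 libraries lay above both empty vector libraries and in 4 below, against 31.1% and 30.9% of all genes tested. The most abundant eIF3 genes per kilobase were EIF3I (102 with SAMD9, 97.2 with empty vector) and EIF3K (95.6 and 89.6).

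The eIF4 group, which binds the cap and unwinds the mRNA, held the member with the lowest adjusted p. Of 11 tested genes 1 rose, the exon junction helicase gene EIF4A3 (none under total-count scaling), and 2 fell, EIF4B and EIF4A2. EIF4B (chromosome 12, 53006158 to 53042209), whose product stimulates the helicase, had 302 and 292 CPM with SAMD9, against 374 and 372 CPM with empty vector. The SAMD9 libraries were below both empty vector libraries by much more than either pair's spread, and the log2 fold change was -0.33 (SE 0.06, adjusted p = 9.96e-05). EIF4B was called lower in all 8 alternative analyses, with log2 fold changes from -0.52 to -0.30. An antisense gene, TNS2-AS1, overlaps 11.9% of its exonic bases and had 114 and 66 counts with SAMD9, against 84 and 168 with empty vector, where EIF4B had 11272 and 8346 counts with SAMD9 and 11692 and 12446 with empty vector. Of the EIF4B 31-mers, 26.8% occur in other genes.

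EIF4A2 (chromosome 3, 186783205 to 186789900), a helicase paralogue, had 151 and 154 CPM with SAMD9, against 191 and 177 CPM with empty vector (log2 fold change -0.27, SE 0.06, adjusted p = 0.00264). Of its exonic bases, 17.9% are shared with other genes, among them SNORA63 and SNORA81, which had 0 counts. The call was lost without SAMD9 replicate 1. EIF4A3 (chromosome 17, 80135214 to 80147183), whose product marks spliced junctions, had 116 and 122 CPM with SAMD9, against 86.4 and 104 CPM with empty vector (0.33, SE 0.08, adjusted p = 0.00270). Its empty vector libraries differed from each other more than its SAMD9 libraries did. Both SAMD9 libraries lay above both empty vector libraries, as in 31.1% of all genes tested. EIF4A3 and EIF4A2 were each called in 7 of the 8 alternative analyses, EIF4A3 losing its call under total-count scaling.

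The eIF4G scaffold genes did not pass the test with TMM. EIF4G1 had 939 and 957 CPM with SAMD9, against 851 and 875 CPM with empty vector (0.14, SE 0.05, adjusted p = 0.0547), and EIF4G3 had 105 and 98.5 CPM with SAMD9, against 120.3 and 107 CPM with empty vector (-0.16, SE 0.07, adjusted p = 0.111). EIF4G2, whose product lacks the eIF4E-binding part and serves cap-independent initiation, was at -0.07 (SE 0.05, 95% interval -0.17 to 0.03). The cap-binding protein gene EIF4E had 48.3 and 52.8 CPM with SAMD9, against 53.4 and 61.3 CPM with empty vector (-0.19, SE 0.09, adjusted p = 0.122). EIF4E2, a cap-binding repressor gene, was at 0.09 (SE 0.08), EIF4E3 at -0.17 (SE 0.13) and EIF4H, another helper of the helicase, at 0.10 (SE 0.06). EIF4E1B, an oocyte form, had 4 and 2 counts with SAMD9 and 2 and 4 with empty vector, and was not tested.

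None of the 4 genes for proteins that bind and restrain eIF4E was called with TMM. EIF4EBP1, the main mTORC1-controlled inhibitor, had 77.4 and 77.5 CPM with SAMD9, against 84.3 and 79.7 CPM with empty vector (-0.08, SE 0.07, 95% interval -0.23 to 0.06). EIF4EBP2 was at -0.03 (SE 0.07) and EIF4ENIF1, the nuclear importer and repressor of eIF4E, at 0.15 (SE 0.11). EIF4EBP3, with 21 and 16 counts in the SAMD9 libraries and 8 and 18 in the empty vector libraries, had an interval from -0.90 to 1.88, too wide to place it. Genes acting around subunit joining were not called: EIF5 was at 0.04 (SE 0.06), EIF5B at 0.04 (SE 0.06) and EIF6, which keeps free large subunits apart, at 0.15 (SE 0.07, adjusted p = 0.154).

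Elongation factor genes, with the EIF5A genes placed among them, held 5 of the 9 rises. Of 10 tested, 5 rose relative to other genes (50%, against 15.3% of all genes) and 0 fell. The 5 were EEF1A1, EEF2, EEF1B2, EIF5A and EIF5A2. Under total-count scaling 0 rose, EEF1A1 was at -0.05, and EEF1A2 at -0.30 and EEF1E1 at -0.58 were called lower. EEF2 (chromosome 19, 3976056 to 3985469), the translocase gene, had 2049 and 2085 CPM with SAMD9, against 1785 and 1835 CPM with empty vector (log2 fold change 0.19, SE 0.05, adjusted p = 0.00363). EEF1A1 (chromosome 6, 73515750 to 73523797) had 3906 and 4008 CPM with SAMD9, against 3657 and 3545 CPM with empty vector (0.14, SE 0.04, adjusted p = 0.0250), a call lost without either SAMD9 library. In both, the SAMD9 libraries stood above the empty vector libraries by a margin wider than either pair's spread, though the change was small. The nucleotide exchange gene EEF1B2 had 232 and 247 CPM with SAMD9, against 207 and 204 CPM with empty vector (0.22, SE 0.06, adjusted p = 0.00875). Other genes hold 39.0% of the 31-mers of EEF1B2 and 24.1% of those of EEF1A1.

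EIF5A encodes the hypusine-bearing factor that helps ribosomes past stalls and is now counted with elongation. It had 683 and 714 CPM with SAMD9, against 577 and 617 CPM with empty vector (0.23, SE 0.06, adjusted p = 0.00344). Its paralogue EIF5A2 rose to 16.6 and 19.6 CPM with SAMD9, against 14.6 and 13.5 CPM with empty vector (0.37, SE 0.13, adjusted p = 0.0347), a call lost under total-count scaling, with DESeq2 and without SAMD9 replicate 2 or empty vector replicate 2. EIF5AL1, a retrocopy of EIF5A, was at 0.24 (SE 0.12, adjusted p = 0.154). EEF1A2, the eEF1A isoform typical of muscle and neurons, had 338 and 336 CPM with SAMD9, against 359.8 and 368.5 CPM with empty vector (-0.11, SE 0.06, adjusted p = 0.149). EEF1D was at 0.05 (SE 0.06), the selenocysteine factor gene EEFSEC at -0.03 (SE 0.12) and EEF1E1, whose product sits in the tRNA synthetase complex, at -0.39 (SE 0.21, adjusted p = 0.179).

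Among genes for enzymes that modify elongation factors, the calls were in the other direction. Of 5 tested, 2 fell, EEF2K and EEF2KMT (40%, against 12.2% of all genes), and 0 rose. EEF2K (chromosome 16, 22206282 to 22288732), the kinase that inactivates eEF2, had 64.1 and 56.1 CPM with SAMD9, against 69.4 and 78.7 CPM with empty vector (log2 fold change -0.30, SE 0.08, adjusted p = 0.00953). EEF2KMT, which methylates eEF2, had 15.6 and 17.4 CPM with SAMD9, against 19.7 and 23.0 CPM with empty vector (-0.37, SE 0.12, adjusted p = 0.0233). Both SAMD9 libraries lay below both empty vector libraries in each gene, as in 30.9% of all genes tested. The EEF2K call was lost when replicate 2 of either group was left out, and that of EEF2KMT with DESeq2 and without SAMD9 replicate 1 or empty vector replicate 2. EEF2KMT shares 29.3% of its exonic bases with ALG1 on the opposite strand and 49.3% of its 31-mers with other genes, so its own value is uncertain. The eEF1A methyltransferase genes were not called with TMM, with EEF1AKMT1 at 0.14 (SE 0.25), EEF1AKMT2 at -0.65 (SE 0.30) and EEF1AKMT3 at -0.11 (SE 0.18). Under total-count scaling EEF1AKMT2 was at -0.84 and called lower. Its log2 fold change with TMM was -0.14 without empty vector replicate 1 and -1.02 without empty vector replicate 2.

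**Figure D3:**
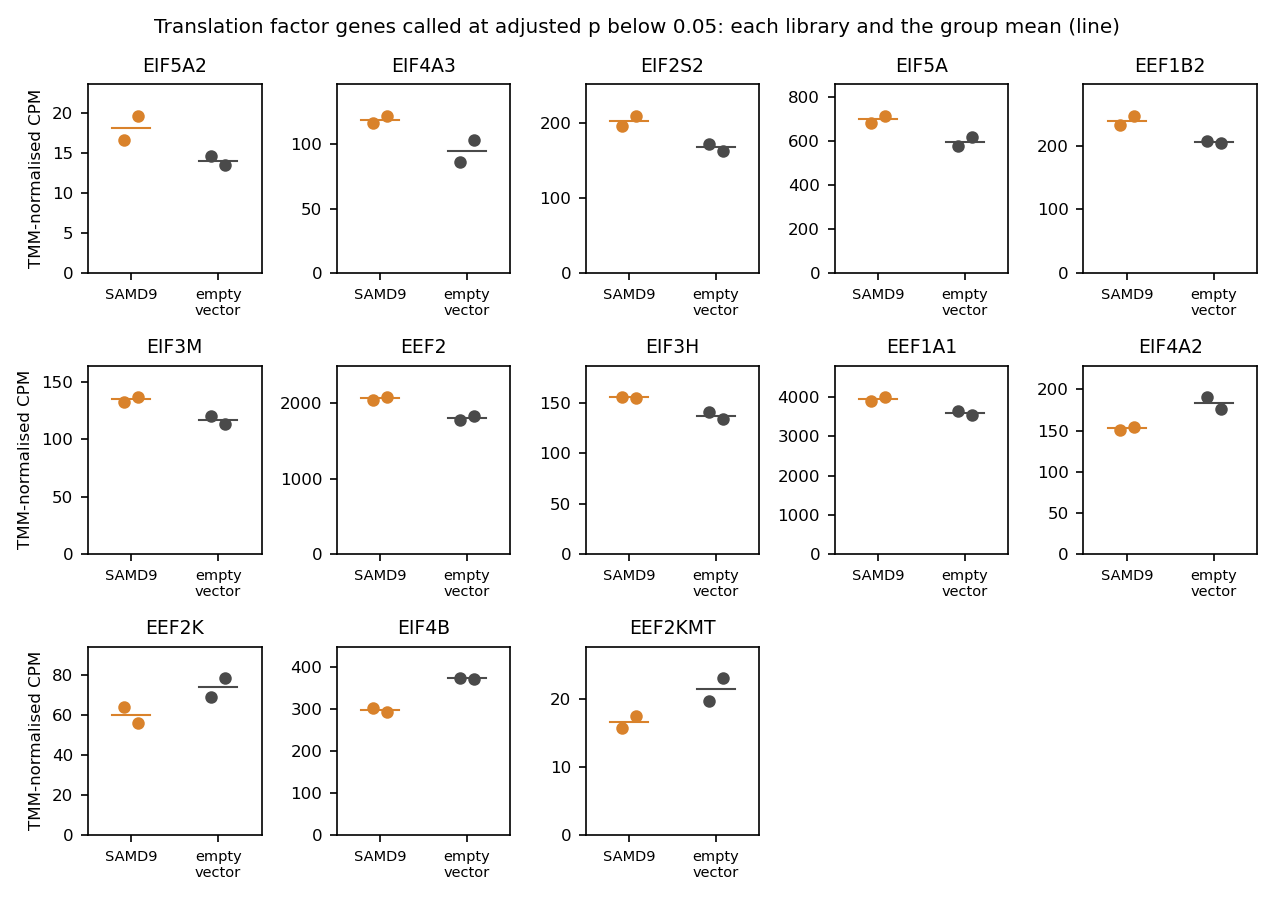
TMM-normalised CPM (y axis, from 0) of the 13 called translation factor genes in each SAMD9 library (orange, left) and each empty vector library (grey, right), with lines at the group means. The 9 genes that were higher, none of them called under total-count scaling, come first and the 4 lower ones last. In each panel the groups do not overlap, as in 31.1% (SAMD9 above) and 30.9% (SAMD9 below) of all genes tested.

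Ratios of counts within a library do not depend on how libraries are scaled. They rest on the same counts as the fold changes above and are no separate support for them. They are given as values without a test, because 0.333 is the smallest two-sided p that exact permutation of 2 libraries against 2 allows. Pairs that are not paralogues were chosen after their values were seen, so their direction and separation between groups are no finding of their own. EIF4A2 had 1.30 and 1.26 counts per count of EIF4A3 in the SAMD9 libraries, against 2.21 and 1.71 in the empty vector libraries, a difference of -0.60 on the log2 scale. EEF2K had 0.0313 and 0.0269 counts per count of EEF2 with SAMD9, against 0.0389 and 0.0429 with empty vector. EEF2K and EEF2, like EIF4A2 and EIF4A3, had been called in opposite directions, so the direction of each ratio follows from the fold changes above.

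EIF4B had 0.803 and 0.789 counts per count of EIF4H with SAMD9, against 1.10 and 1.05 with empty vector. Raw counts do not rank the levels of these helicase helpers, which differ in length. Per kilobase EIF4H was the higher in both groups, at 117 CPM against 48.3 for EIF4B with SAMD9 and 109 against 60.7 with empty vector. EEF1A2 had 0.0864 and 0.0838 counts per count of EEF1A1 with SAMD9, against 0.0984 and 0.104 with empty vector. EIF4G3 had 0.112 and 0.103 counts per count of EIF4G1 with SAMD9, against 0.141 and 0.122 with empty vector. In each of these pairs both SAMD9 ratios lay below both empty vector ratios. Within eIF3, EIF3A had 3.92 and 3.98 counts per count of EIF3M with SAMD9, against 4.95 and 4.93 with empty vector, and EIF3E 1.12 and 1.14 per count of EIF3H, against 1.38 and 1.39. Within eIF2, EIF2S2 had 1.24 and 1.29 counts per count of EIF2S1 with SAMD9, against 1.09 and 1.11 with empty vector. The ratios EIF5A2 to EIF5A, EIF1B to EIF1 and EIF4EBP1 to EIF4E overlapped between groups.

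**Figure D4:**
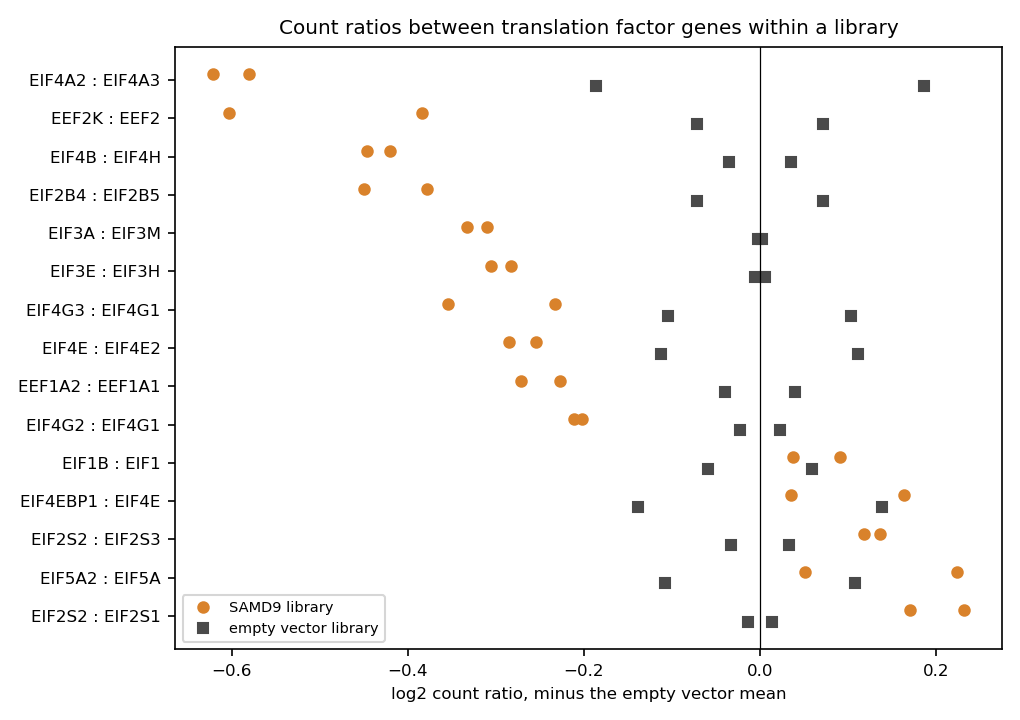
Log2 ratio of the counts of a gene pair in each library, minus the empty vector mean of that pair (x axis), for 15 pairs down the page, with SAMD9 libraries as orange circles above empty vector libraries as grey squares. The lowest pair, EIF4A2 to EIF4A3, lies at a mean of -0.60, and the groups overlap in EIF5A2 to EIF5A, EIF1B to EIF1 and EIF4EBP1 to EIF4E.

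Other genes of translation and its control were followed in 6 lists with 52 tested genes, of which 7 were higher (13.5%, against 15.3% of all genes) and 14 lower (26.9%, against 12.2%). Under total-count scaling 5 were higher and 31 lower, which is 9.62% and 59.6%, against 9.96% and 28.5% of all genes. With either SAMD9 library left out, the 21 calls became 13. Each list alone is small, and its counts are described without a test. Termination and recycling genes fell in 3 of 6 cases (50%, against 12.2% of all genes), with none higher. HBS1L, a rescue factor for stalled ribosomes, fell by 0.47 (SE 0.09), ABCE1, the recycling ATPase, by 0.38 (SE 0.07) and ETF1, the release factor eRF1, by 0.30 (SE 0.06), all on the log2 scale. Their list had a median of -0.29, against -0.01 for all genes. Among poly(A)-binding and LARP genes, 1 of 9 rose, PAIP1 at 0.20 (SE 0.06), a call lost under total-count scaling, and 3 fell, with LARP4B at -0.32 (SE 0.06) and PABPC4 at -0.31 (SE 0.06). LARP1, the repressor that binds pyrimidine starts, was at 0.02 (SE 0.05, 95% interval -0.08 to 0.13) and at -0.16 and called lower under total-count scaling, and was chosen after its values were seen.

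Scanning helpers and regulators held 2 rises and 3 falls among 9, where 15.3% of all genes were higher and 12.2% lower. DDX3X, the helicase that aids scanning through structured leaders, had 1018 and 1013 CPM with SAMD9, against 527 and 479 CPM with empty vector (log2 fold change 1.01, SE 0.06, adjusted p = 1.52e-12). That log2 fold change is larger than any among the translation factor genes. ABCF1 rose by 0.34 (SE 0.07), a call lost under total-count scaling, and PDCD4, the eIF4A inhibitor gene, fell by 0.42 (SE 0.11). Of the mTORC1 and MNK genes, 1 of 12 rose and 3 fell, beside the same shares of all genes. The eIF4E kinase genes parted: MKNK1 had 23.2 and 24.8 CPM with SAMD9, against 12.6 and 13.3 CPM with empty vector (0.89, SE 0.12, adjusted p = 2.80e-06), whereas MKNK2 had 98.8 and 87.1 CPM with SAMD9, against 132 and 139 CPM with empty vector (-0.54, SE 0.07, adjusted p = 3.01e-06). MLST8, an mTORC1 subunit gene, fell by 0.24 (SE 0.07).

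Upstream of eIF2, 2 of 7 genes rose and 2 fell, where 15.3% of all genes were higher and 12.2% lower. The RNA-activated kinase gene EIF2AK2 had 733.5 and 765.5 CPM with SAMD9, against 157 and 145 CPM with empty vector (log2 fold change 2.31, SE 0.06), and PPP1R15A, which directs dephosphorylation of eIF2 alpha, had 1464 and 1693 CPM with SAMD9, against 353 and 263 CPM with empty vector (2.36, SE 0.09). EIF2AK4, the kinase gene of amino acid shortage, fell by 0.40 (SE 0.08). The substrate subunit gene EIF2S1 stood at 0.07, beside changes above 2 in a kinase and a phosphatase regulator that act on it. Of the 9 genes for diphthamide and hypusine, the modifications carried by eEF2 and eIF5A, 1 rose (11.1%, against 15.3% of all genes). It was DHPS, the first enzyme of hypusine synthesis, with 42.6 and 42.7 CPM with SAMD9, against 30.4 and 31.4 CPM with empty vector (0.47, SE 0.09, adjusted p = 0.000306). DPH1 and DPH2, of diphthamide synthesis, were at -0.21 (SE 0.10) and 0.13 (SE 0.08), neither called.

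**Figure D5:**
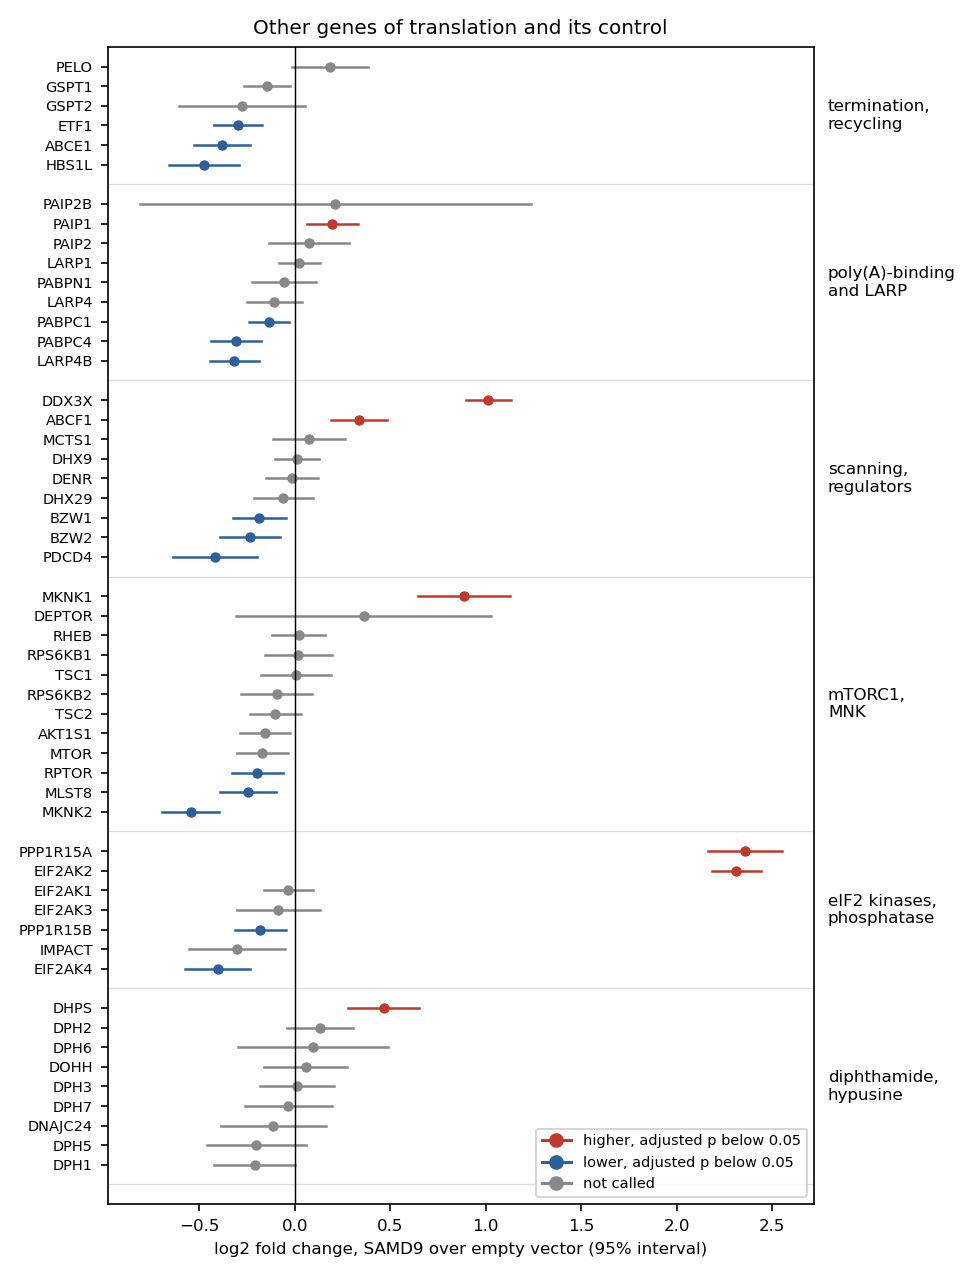
Log2 fold change of 52 other genes of translation and its control, SAMD9 over empty vector, with the 95% interval (x axis), by list down the page; red is called higher, blue called lower and grey not called, with TMM scaling. PPP1R15A and EIF2AK2 lie farthest right at 2.36 and 2.31, and DDX3X is next at 1.01.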

How the data were processed

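The deposited files, 1 for each library, hold read counts by gene. Beside them stand the authors' CPM, which equals the count over the library total, and the authors' RPKM, which is that CPM per kilobase of listed length, so neither was tested. GRCh38, STAR 2.5.1a, Subread's featureCounts 1.4.6-p5 and bcl2fastq are named per the submitters' processing notes. How strand and reads matching several genes were handled is not given in the sources used here, and this bears on the genes named as sharing bases or 31-mers.

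A gene name table supplied 54836 symbols and GENCODE 29 the gene types. Counts of 19814 genes kept by filterByExpr (minimum count 10, minimum total 15) went into edgeR 4.0.16 (R 4.3.3) for testing: TMM, glmQLFit and glmQLFTest, SAMD9 against empty vector, no covariate, and Benjamini-Hochberg adjustment over all genes. SE is the absolute log2 fold change over the square root of F. Levels are TMM-normalised CPM. Replicate libraries differed by more than simple counting noise (chi-square per degree of freedom 5.00 with SAMD9 and 9.35 with empty vector). Of counts from 1 to 20, 72.9% were even, against 49.7% above 1000, as when both reads of a pair are counted, which would raise that chi-square. With separate cultures not stated, each p-value reflects spread among these libraries alone, which may be technical. All members are accounted for by class; values are given by rule for those called, the 2 most abundant per length in each class, paralogue sets and the 3 lowest p per other list. Values of other members, given to complete their classes, were chosen after they were seen. Members and lists were chosen with earlier results of these data known. Alternatives were total-count scaling, DESeq2 1.42.0, no filter, a replicate block and leaving out each library.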

Additional observations from a re-analysis of the deposited data

How the results depend on the processing

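Counts of members were 9 higher and 4 lower, and of all genes 5458 called. Total-count scaling gave 0 higher and 25 lower members, 36 called genes of the other translation lists in place of 21, and 7627 of all genes. Under it EEF1A1 was at -0.0528 and EIF3H at -0.0068, no longer called, and EIF3F at -0.182 and LARP1 at -0.165, now called lower. Leaving out each library in turn gave 1 to 13 members higher, 2 to 5 lower and 13 to 24 genes of the other lists, and every called member kept its sign there. DESeq2 gave 10 higher and 3 lower, no filter 8 and 4. The same replicate number was not stated to mark a shared batch, and deviations of same-numbered libraries were uncorrelated across genes (r = 0.00415), so the libraries were not treated as pairs. With a replicate block, 9 members were higher, 4 lower, 18 genes of the other lists were called, and 5244 of all genes. Over 82 genes and 8 alternatives, 39 of 656 fold changes lost a call and 40 gained one. The sign changed in 40, of which 27 came with total-count scaling, and 2 of these 40 were of called genes, EEF1A1 and EIF3H. Depth limits EIF4EBP3 and EIF4E1B.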
